A study of Mus musculus with 6 samples.

Results

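Oxidative phosphorylation genes encode the respiratory chain of the inner mitochondrial membrane (complexes I to IV and cytochrome c) and ATP synthase (complex V). They were described here in CD8 T cells from the spleens of Aged (around 65 weeks) and Young (6 weeks) female C57BL/6 wild-type mice. All cells of both groups had been activated on plates coated with antibodies to TCR-β (3 µg/ml) and CD28 (1 µg/ml) for 2 days with interleukin 2, a T cell growth factor, at 10 ng/ml. They were then moved to new plates and kept in interleukin 2 for 5 more days before RNA was taken. Each group had 3 libraries. The labels call them biological replicates without saying whether each came from its own mouse, so p-values measure the spread between these libraries, and age cannot be told apart from any difference in culture.

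Members were taken by symbol: names that begin with mt-, Nduf, Uqcr, Cox4 to Cox8 or Atp5, together with Sdha to Sdhd, Cyc1 and Cycs, at a mean of at least 1 CPM (reads per 1000000 reads counted) over the 6 libraries. Of 110 matching identifiers, 103 were members, among 10511 genes with that mean in the whole series. There were 13 mitochondrially encoded and 90 nuclear encoded members. The other matches were Ndufb1-ps, which is named as a pseudogene and averaged 96.9 CPM, and 6 identifiers below the minimum. Just inside it lay Cox6a2 at a mean of 1.73 CPM and Atp5s at 2.21 CPM. Just outside lay Cox4i2, with 0.435 CPM in Young replicate 1 and 0 in the other libraries.

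Electrons from NADH enter the chain at complex I and those from succinate at complex II. They pass by ubiquinone to complex III, by cytochrome c to complex IV and from there to oxygen, while complexes I, III and IV pump the protons that drive complex V. Some of the membrane subunits are encoded by mitochondrial DNA and all other subunits by nuclear genes. Each complex except complex II is thus built from both genomes. Activated T cells raise glycolysis and respiration together, and long-lived memory CD8 T cells are known for their reliance on respiration.

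The recovered depth was 1952552 to 2608553 reads in Aged libraries and 2300219 to 2785915 reads in Young libraries. A count of 0 allows up to 3 reads in a library, or 1.08 to 1.54 CPM, counting error only. The 7 T cell markers checked summed to 2802 to 3133 CPM in Aged and 3229 to 3343 CPM in Young libraries, and all were detected. Markers of other cell types were low, apart from the NK cell list. B cell markers summed to 0 to 1.53 CPM in Aged and 2.51 to 9.99 CPM in Young libraries, with Ms4a1, Cd79a and Pax5 at 0 in every library. Erythroid markers summed to 1.15 to 4.24 CPM in Aged and 9.999 to 22.3 CPM in Young libraries, with Hbb-bs at 0. Myeloid markers summed to 1.54 to 8.47 CPM in Aged and 2.15 to 4.78 CPM in Young libraries, with Lyz2 and Adgre1 at 0. CD4 T cell markers summed to 8.94 to 17.9 CPM in Aged and 18.8 to 23.3 CPM in Young libraries, most of it Zbtb7b. The NK cell list summed to 194 to 250.4 CPM in Aged and 161.8 to 188.4 CPM in Young libraries, most of it Eomes, which CD8 T cells also express. The part of these lists in the results below was not tested.

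The 2 genomes differed in how their messages stood with age. The 13 mitochondrially encoded messages summed to 26313, 26673 and 24960 CPM in Aged libraries, against 31830, 33086 and 28919 CPM in Young libraries. The groups did not overlap, and the mean of the Aged sums was 0.831 of the Young mean. The 90 nuclear messages summed to 15453, 15038 and 15251 CPM in Aged libraries, against 15006, 15469 and 14923 CPM in Young libraries. These sums overlapped, with a ratio of the means of 1.01 (0.01 as a log2 ratio, and -0.04 with TMM scaling). The mitochondrial sum divided by the nuclear sum was 1.70 ± 0.0686 in Aged and 2.07 ± 0.111 in Young libraries (SD, n = 3 each). In bulk libraries fewer cells of a type and less RNA per cell cannot be told apart.

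**Figure D1:**
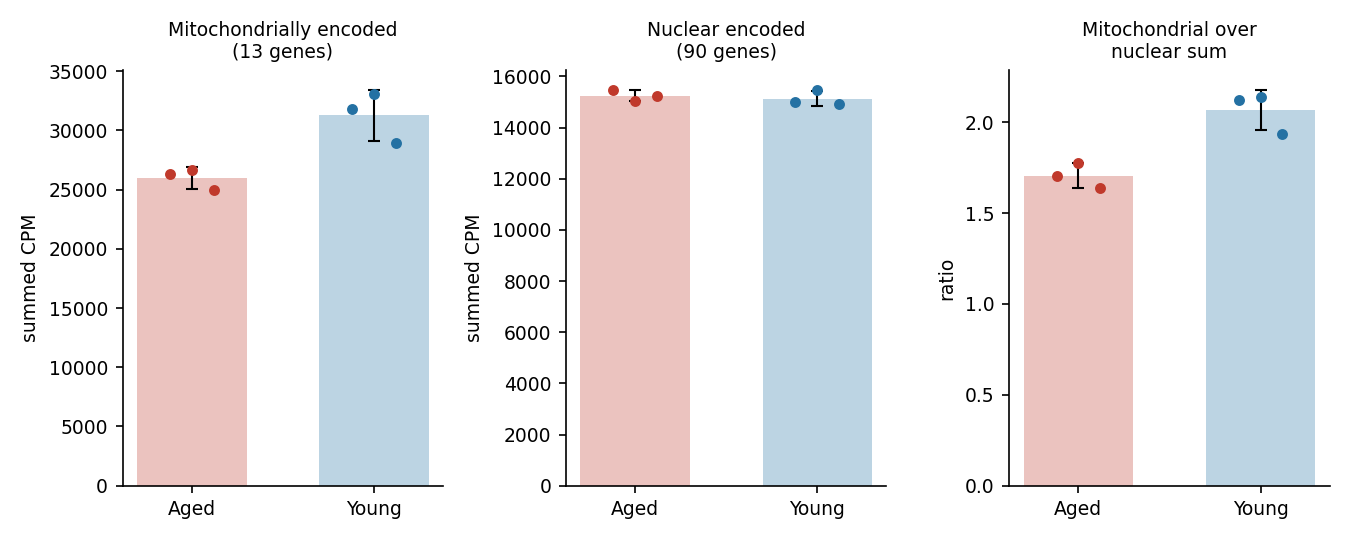
Summed CPM of the 13 mitochondrially encoded members (left), of the 90 nuclear members (middle), and the ratio of these sums (right), for Aged and Young libraries. Points are libraries, bars are means of 3 libraries and error bars are SD; the mitochondrial sums are 24960 to 26673 CPM in Aged and 28919 to 33086 CPM in Young libraries, while the nuclear sums overlap.

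Of the 13 mitochondrially encoded members 8 were called lower, 0 higher and 5 were not called by limma, while over all 10511 genes 12.5% were called lower and 16.2% higher. The median log2 fold change (Aged minus Young on log2(CPM + 1)) was -0.23 for these members and 0.03 over all genes. In 9 of the 13 every Aged library lay below every Young library, and in 2 every Aged library lay above, where the shares over all genes were 18.3% and 22.5%. All 8 calls held under each of the scalings, count tests and left-out libraries tried, and 0 were called higher by limma, edgeR or DESeq2. At an unadjusted limma p under 0.05, 1 of the 13 (mt-Nd2) was higher.

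Complex IV, cytochrome c oxidase, takes its catalytic core from the mitochondrial genome, and all 3 of these messages fell. mt-Co1, which holds the haem and copper centre where oxygen is reduced, had 2089, 2070 and 1955 CPM in Aged libraries, against 3059, 3108 and 2683 CPM in Young libraries. It fell by 0.53 ± 0.06 (SE) on the log2 scale (limma adjusted p = 9.19e-07). mt-Co2, the subunit that receives electrons from cytochrome c, had 1816, 1879 and 1687 CPM in Aged libraries, against 2673, 2820 and 2241 CPM in Young libraries, and fell by 0.52 ± 0.07 on the log2 scale (limma adjusted p = 1.11e-05). Young replicate 3 was the lowest Young library for both genes, and still above every Aged library. mt-Co3, the third core subunit, had 3062, 3034 and 2946 CPM in Aged libraries, against 3466, 3625 and 3545 CPM in Young libraries, a smaller difference of -0.23 ± 0.04 (limma adjusted p = 0.000529).

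The 7 mitochondrially encoded subunits of complex I, which form its proton-pumping membrane arm, did not move alike. mt-Nd4 had 4245, 4235 and 4117 CPM in Aged libraries, against 5990, 6315 and 4930 CPM in Young libraries, and fell by 0.44 ± 0.07 on the log2 scale (limma adjusted p = 3.88e-05). mt-Nd5 had 752.3, 780.1 and 764.8 CPM in Aged libraries, against 993.4, 982.1 and 967.5 CPM in Young libraries, and fell by 0.36 ± 0.05 (limma adjusted p = 3.66e-05). mt-Nd6 had 808.7, 854.9 and 815.6 CPM in Aged libraries, against 1288, 1420 and 1140 CPM in Young libraries. It fell by 0.63 ± 0.07, the largest decrease among the 13 (limma adjusted p = 9.43e-07). The groups of these 3 genes did not overlap. The other 4 were not called. mt-Nd2 had 3922, 4401 and 4020 CPM in Aged libraries, against 3864, 3859 and 3622 CPM in Young libraries (0.12, 95% interval 0.015 to 0.23, limma adjusted p = 0.0819). mt-Nd3 had 784.1, 673.6 and 673 CPM in Aged libraries, against 624.7, 669.1 and 652.8 CPM in Young libraries (0.13, interval -0.0085 to 0.26, limma adjusted p = 0.158). In these 2 genes every Aged library was above every Young library, by a few CPM in the case of mt-Nd3. mt-Nd1 and mt-Nd4l overlapped between the groups, at log2 fold changes of -0.05 (interval -0.16 to 0.07) and -0.09 (interval -0.27 to 0.084), and mt-Nd1 had the opposite sign without Aged replicate 3 (0.013).

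mt-Cytb, the cytochrome b subunit of complex III, had 1693, 1644 and 1470 CPM in Aged libraries, against 2163, 2175 and 1806 CPM in Young libraries, and fell by 0.35 ± 0.07 (limma adjusted p = 0.000576). mt-Atp6, which forms part of the proton path of ATP synthase, had 4049, 4071 and 3749 CPM in Aged libraries, against 4593, 4911 and 4400 CPM in Young libraries, and fell by 0.23 ± 0.05 (limma adjusted p = 0.00191). mt-Atp8, its neighbour in the same complex, was lower in every Aged library, at 278.7 to 295.6 CPM in Aged and 318.2 to 327.4 CPM in Young libraries, and was not called (-0.15, interval -0.28 to -0.012, limma adjusted p = 0.0982). It was called lower with each of the 3 scalings tried (TMM, RLE, upper quartile), by edgeR and by limma-voom.

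**Figure D2:**
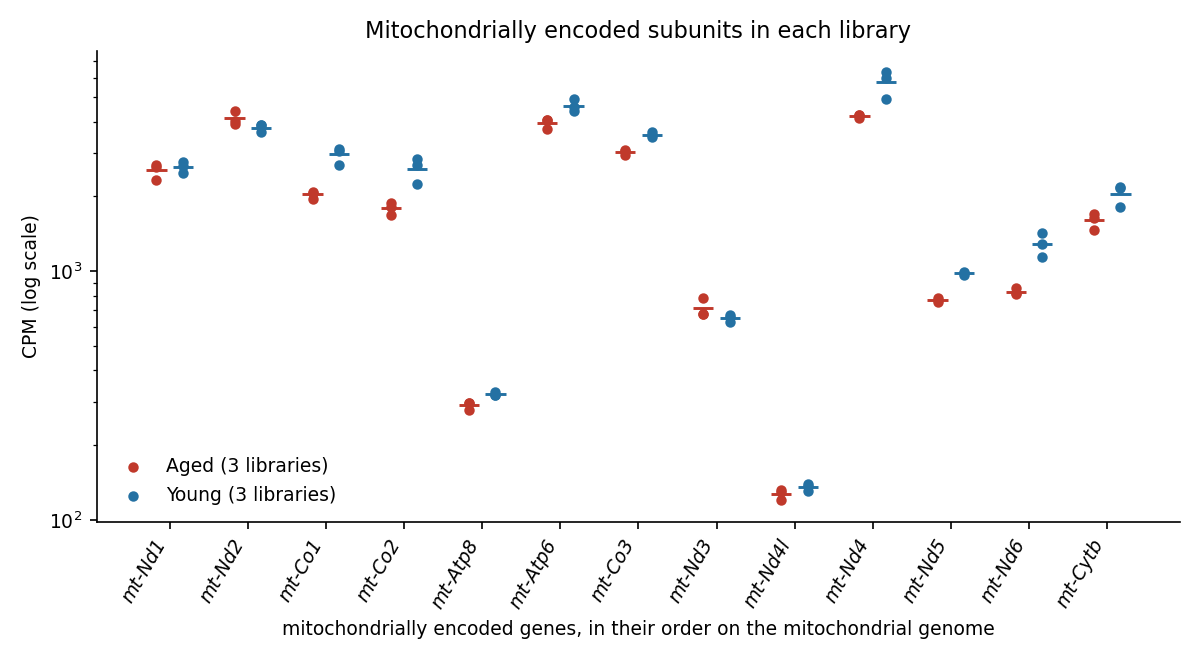
CPM on a log axis of the 13 mitochondrially encoded members in each of 3 Aged and 3 Young libraries, in their order on the mitochondrial genome, with a bar at each group mean. The Aged points lie below the Young points for 9 genes, above them for mt-Nd2 and mt-Nd3, and overlap for mt-Nd1 and mt-Nd4l.

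Reads cannot always be given to 1 of these genes. mt-Atp8 with mt-Atp6 and mt-Nd4l with mt-Nd4 are each carried on a shared message, and the genes of a pair share bases in GRCm38. The shared stretches are shown because a read within them belongs to both genes. The capitals mark the start codon of the downstream gene and the stop codon of the upstream gene. Both stretches are on the + strand, of 43 bases at chrM:7927-7969 and of 7 bases at chrM:10167-10173, read from the GENCODE M21 transcripts.
mt-Atp8 and mt-Atp6: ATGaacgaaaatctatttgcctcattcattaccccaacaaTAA
mt-Nd4l and mt-Nd4: ATGcTAA
In each pair the upstream gene had the lower value, 305.6 CPM for mt-Atp8 beside 4296 CPM for mt-Atp6, and 131.8 CPM for mt-Nd4l beside 4972 CPM for mt-Nd4, as means over the 6 libraries. A 3′ tag marks the end of a message, and the end of a shared message lies on the side of the downstream gene. How far this accounts for the lower value of an upstream gene was not tested. Since a tag stands for 1 transcript end whatever the length of the gene, levels were not divided by length.

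Other limits of the mitochondrial values lie in the counting. mt-Nd6 is the only one of the 13 on the - strand (chrM:13552-14070), its end overlaps that of mt-Nd5 (chrM:11742-13565) on the other strand, and in human cells its message is known to carry little or no poly(A) tail. Without the strand setting, reads of these 2 genes within the annotated overlap cannot be told apart. The same holds for any read of mt-Nd5 past its annotated end, which would fall within mt-Nd6. The 3′ ends of 8 of the 13 (mt-Nd2, mt-Co1, mt-Co2, mt-Atp6, mt-Co3, mt-Nd3, mt-Nd4l and mt-Nd6) were near-identical to a nuclear gene model that is not among the deposited identifiers, so reads with several matches could have been lost or kept. With CPM recomputed without the 13 genes, 16 nuclear members were called higher and 10 lower, against 17 and 10 with them.

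Of the 90 nuclear members 17 were called higher and 10 lower in Aged libraries, shares of 18.9% and 11.1%, beside 16.2% and 12.5% over all genes. Calls were more frequent among well-expressed genes. Of the 4218 genes with a mean of 30 to 700 CPM, 27.9% were called higher and 15.65% lower, at a median log2 fold change of 0.08. Of the 79 nuclear members in that range 21.5% and 11.4% were, at a median of 0.04. The median log2 fold change of all 90 nuclear members was 0.06, beside 0.03 over all genes. In 24 of the 90 every Aged library was above every Young library and in 17 every Aged library was below. The shares over all genes were 22.5% and 18.3%. The directions depended on the scaling. With TMM scaling, which put the median of all genes at -0.02, 10 nuclear members were called higher and 15 lower, while 13.6% and 14.8% of all genes were. RLE scaling called 10 and 15 members (13.8% and 14.6% of all genes), and upper-quartile scaling 9 and 18 (12.4% and 16.1%). On recovered reads edgeR called 11 and 15 (13.7% and 14.8% of all genes), limma-voom 10 and 15 (13.7% and 14.5%), and DESeq2 8 and 10 (8.98% and 9.65%). Leaving out 1 library gave 10 to 14 members called higher, the fewest without Young replicate 1 (10) or Aged replicate 1 (11), and 8 to 10 called lower. All 10 nuclear members called lower, but 8 of the 17 called higher, were called under each of the 6 scalings and count tests.

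**Figure D3:**
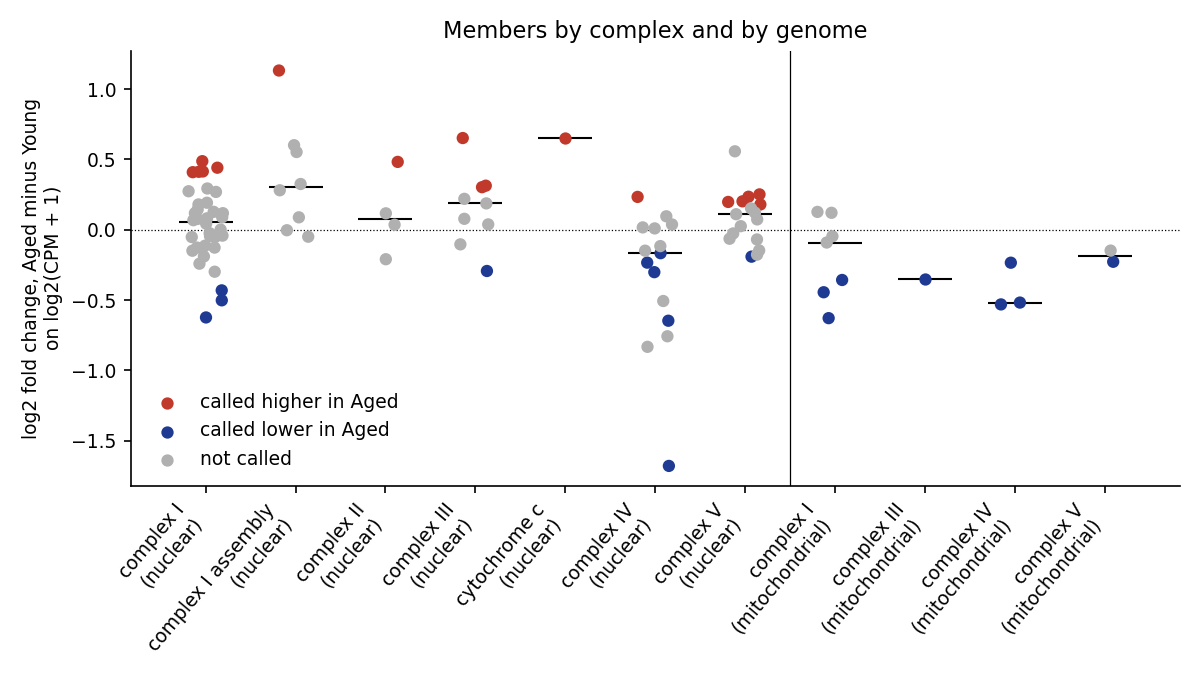
Log2 fold change, Aged minus Young on log2(CPM + 1), of each of the 103 members, grouped by complex for nuclear genes (left of the line) and mitochondrial genes (right of it), with a bar at each median. Red points were called higher, blue points lower and grey points not called; the medians are -0.17 for nuclear and -0.52 for mitochondrial complex IV, and 0.19 for nuclear complex III.

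Among the 36 nuclear subunits of complex I, 5 were called higher (13.9%), 3 lower (8.33%) and 28 not. The shares were 16.2% and 12.5% over all genes, and 27.9% and 15.65% over genes with a mean of 30 to 700 CPM. The median log2 fold change of the 36 was 0.06. The nuclear core subunits carry the flavin and the iron-sulfur clusters that lead electrons to ubiquinone, and Ndufv1 and Ndufs1 among them were called. Ndufv1, which oxidises NADH, had 94.7, 91.6 and 95.1 CPM in Aged libraries, against 61.3, 63.2 and 84.2 CPM in Young libraries. It rose by 0.44 ± 0.12 (limma adjusted p = 0.00698), was 0.36 and not called without Young replicate 1, and was not called by DESeq2. Ndufs1, which holds iron-sulfur clusters next to it, had 38.4, 41.8 and 48.9 CPM in Aged libraries, against 26.95, 27.3 and 37.7 CPM in Young libraries, and rose by 0.49 ± 0.16 (limma adjusted p = 0.0239). Its call was lost without Aged replicate 3 or Young replicate 1 or 2 (0.39 to 0.42), with upper-quartile scaling and with DESeq2. For both genes Young replicate 3 was the highest Young library. The core subunits Ndufs3, Ndufs7, Ndufs8 and Ndufv2 had log2 fold changes of -0.05 to 0.14 and were not called.

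The other called subunits of complex I were accessory, meaning that they surround the core without carrying electrons. Ndufv3, a small subunit at the NADH-oxidising tip, had 192.1, 164.1 and 150.6 CPM in Aged libraries, against 255.6, 285.4 and 239.4 CPM in Young libraries, and fell by 0.62 ± 0.09 (limma adjusted p = 3.60e-05). It lay beside Ndufv1 in the complex and moved the other way. Ndufa6, which binds the acyl carrier protein in complex I, had 105, 86.25 and 91.77 CPM in Aged libraries, against 127.4, 143.9 and 129.9 CPM in Young libraries (-0.50 ± 0.10, limma adjusted p = 0.000544). Ndufab1, the acyl carrier protein itself, which also serves mitochondrial fatty acid synthesis, had 115.7, 115 and 110.1 CPM in Aged libraries, against 84.3, 78.97 and 92.6 CPM in Young libraries (0.41 ± 0.09, limma adjusted p = 0.00248). Ndufa13, also known as GRIM-19, had 107, 114.2 and 124.2 CPM in Aged libraries, against 157.8, 169.8 and 139.9 CPM in Young libraries (-0.43 ± 0.09, limma adjusted p = 0.00151). The groups of these 4 genes did not overlap.

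Ndufa5, a subunit of the peripheral arm, averaged 128.8 ± 5.19 CPM in Aged and 96.7 ± 3.65 CPM in Young libraries (SD, n = 3 each), and rose by 0.41 ± 0.09 on the log2 scale (limma adjusted p = 0.00144). Ndufa12, another, had 248.9, 206.2 and 270.6 CPM in Aged libraries, against 177.8, 158.7 and 207.1 CPM in Young libraries. It rose by 0.41 ± 0.10 (limma adjusted p = 0.00425), although Aged replicate 2 lay just below Young replicate 3. All 6 accessory calls were kept when any 1 library was left out. The most abundant nuclear subunit of complex I was Ndufv3, with a mean of 214.5 CPM over the 6 libraries.

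The 8 assembly factors with Nduf names, which help to build complex I and are not part of it, had a median log2 fold change of 0.30, and 1 was called higher (12.5%, against 16.2% of all genes). Ndufaf4, which acts early in assembly together with Ndufaf3, had 44.04, 40.3 and 43.3 CPM in Aged libraries, against 16.9, 19.02 and 20.7 CPM in Young libraries. It was 2.25-fold higher in CPM and rose by 1.13 ± 0.15 on the log2 scale, the largest increase among the 103 members (limma adjusted p = 1.40e-05), and it was called in every alternative. Ndufaf2 was also higher in every Aged library, at 15.9 ± 1.36 CPM in Aged and 10.5 ± 0.575 CPM in Young libraries, and was not called (0.55, limma adjusted p = 0.056) except with a minimum mean of 5 CPM. Ndufaf5 was not called, with 6.9 to 12.8 CPM in Aged and 3.48 to 8.84 CPM in Young libraries. Ndufaf3, the partner of Ndufaf4, was at 27.2 ± 3.83 CPM in Aged and 28 ± 0.601 CPM in Young libraries. Ndufaf8, the most abundant factor, was at 58 ± 7.07 CPM in Aged and 57.9 ± 3.88 CPM in Young libraries.

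Complex II, succinate dehydrogenase, also works in the tricarboxylic acid cycle and is wholly nuclear encoded. Sdhb, its iron-sulfur subunit, had 268.4, 249.6 and 255.5 CPM in Aged libraries, against 175.2, 171.2 and 208.3 CPM in Young libraries. It rose by 0.48 ± 0.08 on the log2 scale (limma adjusted p = 0.000167), in groups that did not overlap and in every alternative. The catalytic flavoprotein Sdha was at 86.6 ± 9.93 CPM in Aged and 79.4 ± 1.63 CPM in Young libraries (0.12, limma adjusted p = 0.442). Of the membrane anchors, Sdhc was lower in every Aged library, at 56.5 ± 3.31 CPM in Aged and 65.6 ± 5.90 CPM in Young libraries (-0.21, limma adjusted p = 0.182), and Sdhd was at 36.1 ± 3.56 CPM in Aged and 35.1 ± 0.133 CPM in Young libraries (0.04, limma adjusted p = 0.884). The sign for Sdhd turned under the 3 scalings and all count tests (-0.05 to -0.002) and without Aged replicate 2 (-0.04).

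Of the 9 nuclear subunits of complex III, 3 were called higher and 1 lower (33.3% and 11.1%, against 16.2% and 12.5% of all genes). Over genes with a mean of 30 to 700 CPM the shares were 27.9% and 15.65%. Cyc1, cytochrome c1, which hands electrons to cytochrome c, had 86.6, 73.2 and 96.5 CPM in Aged libraries, against 53.5, 48.8 and 59.2 CPM in Young libraries, 1.59-fold higher (0.65 ± 0.12, limma adjusted p = 0.000365). Cycs, cytochrome c itself, which also triggers apoptosis when released from mitochondria, had 97.8, 92.01 and 71.1 CPM in Aged libraries, against 58.7, 43.1 and 64.2 CPM in Young libraries, 1.57-fold higher (0.65 ± 0.14, limma adjusted p = 0.00183). Both were called in every alternative, and in neither did the groups overlap.

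Uqcrh, the hinge protein that helps cytochrome c1 bind cytochrome c, went the other way from them, with 330.3, 335.8 and 356.3 CPM in Aged libraries, against 395.2, 410.3 and 449.2 CPM in Young libraries (-0.29 ± 0.07, limma adjusted p = 0.00259). It was the most abundant nuclear subunit of the complex. The small subunits Uqcr10 and Uqcr11 rose by 0.30 ± 0.09 and 0.31 ± 0.11 (limma adjusted p = 0.0199 and 0.036). Both calls depended on the libraries and the scaling. Uqcr10 was not called without Aged replicate 2 or Young replicate 1 or 3 (0.23 to 0.29), nor with any of the 3 scalings, limma-voom or DESeq2. Uqcr11 was not called without Aged replicate 1 or 3 or Young replicate 1 or 2 (0.22 to 0.33), nor with the scalings or any count test. The core proteins Uqcrc1 and Uqcrc2 and the Rieske iron-sulfur protein Uqcrfs1 were among the 5 not called.

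Of the 15 nuclear members of complex IV, 1 was called higher and 5 lower (6.67% and 33.3%, against 16.2% and 12.5% of all genes). Over genes with a mean of 30 to 700 CPM the shares were 27.9% and 15.65%. The median log2 fold change of the 15 was -0.17. Cox7a2l is known for a part in joining complexes III and IV into supercomplexes, which was not measured in these cells. It had 223.3, 210.1 and 193.4 CPM in Aged libraries, against 325.6, 339.6 and 316.6 CPM in Young libraries. It fell by 0.65 ± 0.07 on the log2 scale, with the smallest p of any nuclear member (limma adjusted p = 2.08e-06). Cox4i1, the largest nuclear subunit, had 228.9, 239.6 and 230.6 CPM in Aged libraries, against 275.6, 300.4 and 286.6 CPM in Young libraries (-0.30 ± 0.07, limma adjusted p = 0.00251). Cox6c had 424.6, 412.9 and 422.6 CPM in Aged libraries, against 505.6, 502.2 and 474.9 CPM in Young libraries (-0.23 ± 0.06, limma adjusted p = 0.00584). The groups of these 3 genes were well apart, and their calls were kept in every alternative.

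Cox8a, the most abundant nuclear subunit of complex IV, had 583.9, 552 and 537 CPM in Aged libraries, against 618.2, 624.9 and 634 CPM in Young libraries (-0.17 ± 0.06, limma adjusted p = 0.0361). Its groups did not overlap, but its call was lost without any 1 of 5 libraries, all but Aged replicate 1 (-0.18 to -0.14). Cox5a, the subunit that rose, had 361.6, 374.2 and 313 CPM in Aged libraries, against 283.9, 301.5 and 303.9 CPM in Young libraries (0.23 ± 0.07, limma adjusted p = 0.0226). It was not called without Aged replicate 1 or 2 or Young replicate 1 (0.18 to 0.21), nor with any of the 3 scalings or count tests. Ndufa4, named for complex I and since assigned to complex IV, was at 18.5 ± 4.50 CPM in Aged and 26.4 ± 4.50 CPM in Young libraries (-0.51, limma adjusted p = 0.0585). It was called lower without Aged replicate 3 (-0.69), with the replicate block, the 3 scalings, edgeR and limma-voom.

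Several subunits of complex IV come as paired isoforms, one found in most tissues and one known from muscle, heart or testis. The tissue-restricted isoforms were at low levels. Cox6b2, known from testis, had 2.56, 4.98 and 3.77 CPM in Aged libraries, against 11.3, 12.9 and 18.4 CPM in Young libraries, and fell by 1.68 ± 0.29 on the log2 scale (limma adjusted p = 0.000211). This was the largest log2 fold change among the 103 members. Its ubiquitous partner Cox6b1 was at 307.1 ± 7.98 CPM in Aged and 305.6 ± 23.9 CPM in Young libraries (0.01), so the summed level of the pair was 310.8 ± 7.96 CPM in Aged and 319.8 ± 21.03 CPM in Young libraries. Cox7a1, known from muscle, had 3.07, 4.22 and 2.82 CPM in Aged libraries, against 7.83, 8.97 and 3.46 CPM in Young libraries. It was not called (-0.76, limma adjusted p = 0.116), except without Young replicate 3 (-1.11). Its partner Cox7a2 was at 299.5 ± 18.5 CPM in Aged and 280 ± 9.52 CPM in Young libraries and was not called (0.10). Cox6a2, also a muscle isoform, lay near the floor at 0.767 to 1.02 CPM in Aged and 1.30 to 3.84 CPM in Young libraries and was not called (-0.83), and its partner Cox6a1 was at 408.8 ± 12.2 CPM in Aged and 404.3 ± 19.2 CPM in Young libraries (0.02). The signs for Cox6b1 and Cox6a1 turned under the 3 scalings and all count tests and without Aged replicate 1 or Young replicate 3 (-0.05 to -0.003 for Cox6b1, -0.02 to -0.0073 for Cox6a1 without either). Cox4i2, Cox7b2, Cox8b and Cox8c were below the minimum of 1 CPM.

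Of the 17 nuclear subunits of ATP synthase and its factors, 5 were called higher and 1 lower (29.4% and 5.88%, against 16.2% and 12.5% of all genes). Over genes with a mean of 30 to 700 CPM the shares were 27.9% and 15.65%. The median log2 fold change of the 17 was 0.11. The 3 genes Atp5g1, Atp5g2 and Atp5g3 encode the same mature c subunit, which forms the rotating ring of the enzyme, behind different targeting peptides. Atp5g3, the most abundant of the 90 nuclear members, had 726.7, 736 and 721.5 CPM in Aged libraries, against 623, 635 and 577.9 CPM in Young libraries, and rose by 0.25 ± 0.06 in every alternative (limma adjusted p = 0.00245). Atp5g1 had 249.4, 213.9 and 236.3 CPM in Aged libraries, against 207.4, 195.3 and 190.6 CPM in Young libraries (0.23 ± 0.08, limma adjusted p = 0.0285). Atp5g2 went the other way, with 386.2, 374.2 and 418.9 CPM in Aged libraries, against 434.7, 466.6 and 444.6 CPM in Young libraries (-0.19 ± 0.06, limma adjusted p = 0.0322). The 3 genes summed to 1362, 1324 and 1377 CPM in Aged libraries, against 1265, 1297 and 1213 CPM in Young libraries, a ratio of the means of 1.08. The call of Atp5g1 was lost without Aged replicate 1 or 3 or Young replicate 2 or 3 (0.19 to 0.23) and with every scaling and count test, and that of Atp5g2 without any 1 library but Aged replicate 3 (-0.21 to -0.16). The 3′ end of Atp5g1 is near-identical to one in transcripts of Cct6a and of Ncbp3, and that of Atp5g2 to 2 gene models not among the deposited identifiers, so their reads are uncertain.

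The catalytic head of ATP synthase is formed by the products of Atp5a1 and Atp5b. Atp5a1 had 533.7, 507.9 and 558.6 CPM in Aged libraries, against 448.7, 454.8 and 487.2 CPM in Young libraries (0.20 ± 0.06, limma adjusted p = 0.0193). Atp5b had 473.7, 442.4 and 490.9 CPM in Aged libraries, against 428.2, 383.7 and 414.6 CPM in Young libraries (0.20 ± 0.07, limma adjusted p = 0.0293). Atp5k, the e subunit that links pairs of the enzyme, had 297.6, 309 and 309.2 CPM in Aged libraries, against 270.8, 266.7 and 270.5 CPM in Young libraries (0.18 ± 0.07, limma adjusted p = 0.0451). The groups did not overlap in any of the 3, but none was called with any scaling or count test, nor was Atp5k with no filter on low values or with the replicate block. Leaving out a library also ended the calls, for Atp5a1 without Aged replicate 1 or 3 or Young replicate 1 or 2 (0.17 to 0.20), for Atp5b without Aged replicate 1 or 3 or Young replicate 2 (0.15 to 0.19), and for Atp5k without any 1 of the 6 (0.17 to 0.198). The other 11 had log2 fold changes of -0.18 to 0.56 and were not called, the highest being Atp5s at a mean of 2.21 CPM. Among them Atp5e (-0.18) and Atp5h (-0.15) were lower in every Aged library than in every Young library. Both were called lower with each of the 3 scalings, by edgeR and by limma-voom (-0.23 and -0.20 with TMM).

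**Figure D4:**
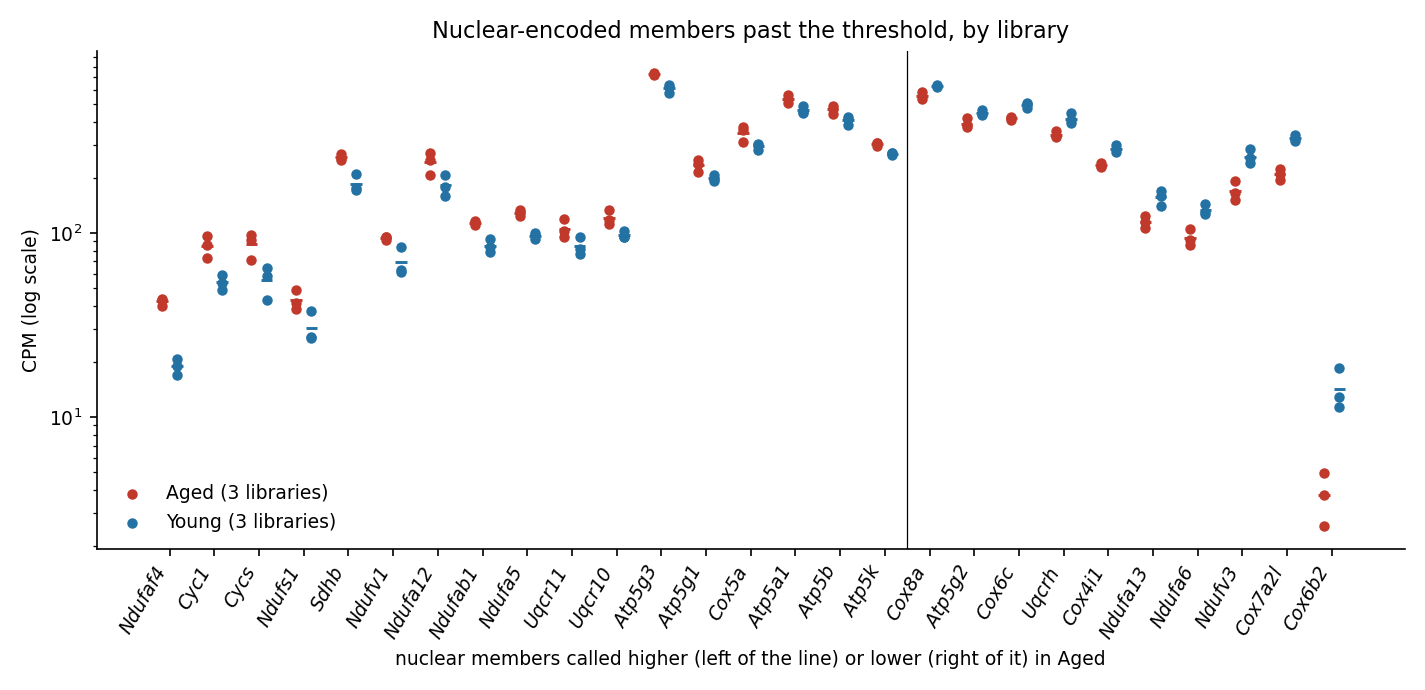
CPM on a log axis of the 17 nuclear members called higher (left of the line) and the 10 called lower (right of it) in each of 3 Aged and 3 Young libraries, ordered by log2 fold change, with a bar at each group mean. Ndufaf4 at the left end and Cox6b2 at the right end lie furthest apart; among the 17 the Aged and Young points overlap for Ndufa12 and Uqcr11.

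**Figure D5:**
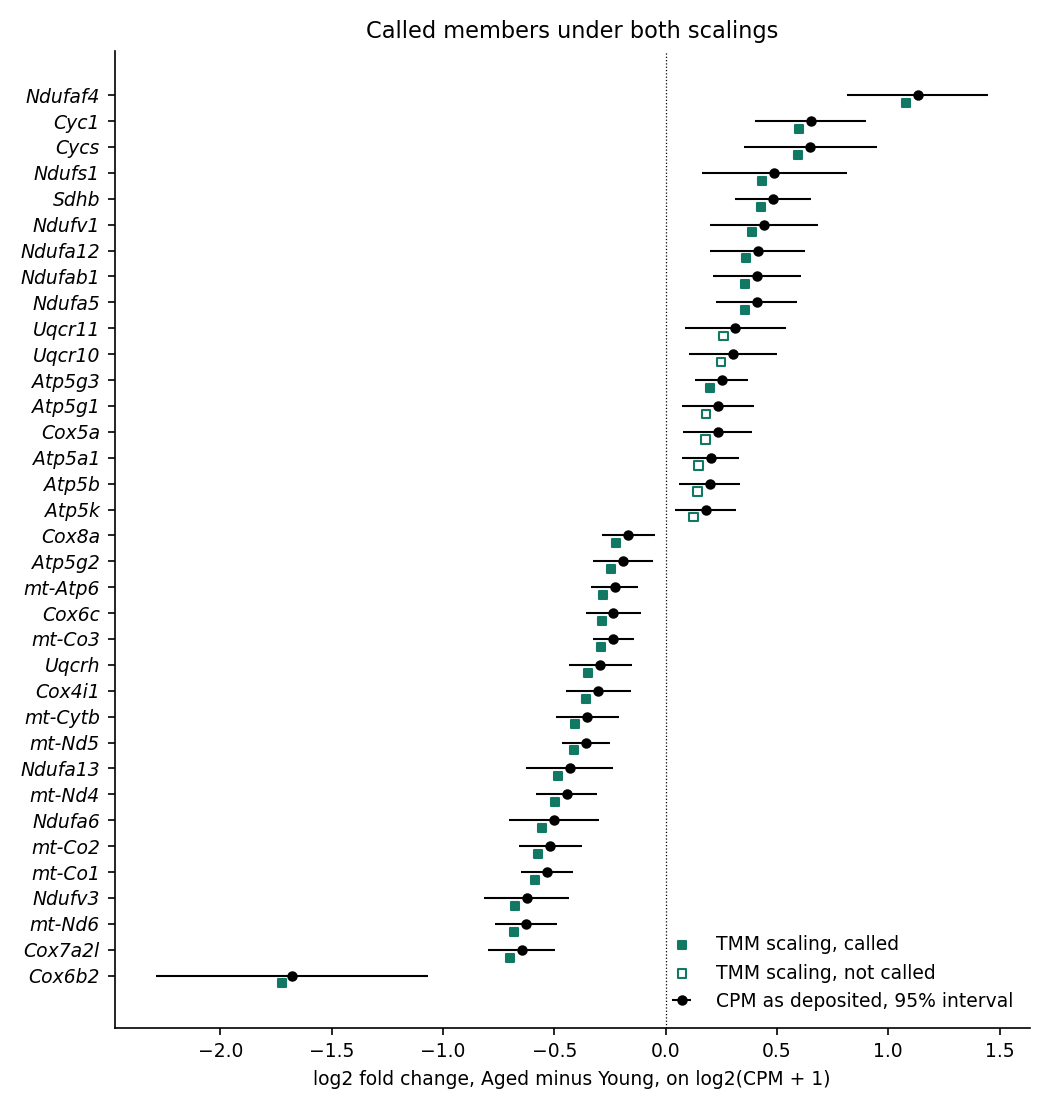
Log2 fold change, Aged minus Young on log2(CPM + 1), of the 35 called members with CPM as deposited (black, with 95% intervals) and with TMM scaling (green squares, filled where called). All squares lie to the left of their black points, and the 7 open squares are all members called higher with CPM as deposited.

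The level of the messages differed by complex and genome. The median member had 2186 CPM among the 13 mitochondrial genes, and 107.2 CPM in complex I, 72.02 CPM in complex II, 110 CPM in complex III, 289.7 CPM in complex IV and 299.5 CPM in complex V among nuclear genes. The assembly factors of complex I had a median of 13.3 CPM. Summed by complex, the nuclear subunits of complex IV had 3975, 3862 and 3718 CPM in Aged libraries, against 4160, 4312 and 4035 CPM in Young libraries, and did not overlap. Those of complex V had 5348, 5309 and 5415 CPM in Aged libraries, against 5080, 5220 and 5020 CPM in Young libraries, and did not overlap either, in the other direction. Those of complex II had 437.4, 429 and 444.7 CPM in Aged libraries, against 355.6, 356.8 and 382.7 CPM in Young libraries (ratio of the means 1.20), and the assembly factors of complex I had 194.1, 173.3 and 183.5 CPM in Aged libraries, against 149.6, 144.3 and 147.2 CPM in Young libraries (ratio 1.25). Both were higher without overlap. Sdhb and Ndufaf4 were the members called among them. Those of complex III overlapped, at 1327 to 1399 CPM in Aged and 1285 to 1355 CPM in Young libraries. Those of complex I overlapped too, at 3846 to 4040 CPM in Aged and 3918 to 4058 CPM in Young libraries. All sums by complex used CPM as deposited and were not repeated with the other scalings.

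Promoters were searched for letters bound by factors known from respiratory genes (NRF1, the ETS family and YY1) and for the common E-box and CCAAT letters, in RefSeq windows (GRCm38.p6) from 250 bases before to 50 bases after each start, on both strands. Windows were matched for 73 of the 90 nuclear members (78 windows, 5 members having more than 1). The NRF1 letters, a palindrome given in capitals in each of the windows below, stood in 8.97% of the members' windows and 0.971% of all 32851 windows. The ETS letters CCGGAAG, part of sites bound by GABP, stood in 23.1% of the members' windows and 8.86% of all. The YY1 motif, named only, stood in 6.41% of the members' windows and 0.633% of all. The E-box letters CACGTG stood in 7.69% of the members' windows and 7.15% of all, and the CCAAT letters in 43.6% and 37.4%. The NRF1 letters were in 2 of 14 members called higher with a window, 1 of 8 called lower and 4 of 51 not called. The ETS letters were in 3, 2 and 13 members of the same groups, and the YY1 motif in 0, 0 and 5. The E-box letters were in 3, 0 and 2 members of these groups, and the CCAAT letters in 6, 6 and 21. Differences between the groups were not tested. A match is a description of the letters and not a binding site. The windows of the 3 called members with the NRF1 letters are shown because they include members that moved in opposite directions: Ndufaf4 and Atp5k were higher and Atp5g2 lower in Aged libraries. Of these calls, that of Ndufaf4 held in every alternative. That of Atp5k was lost with every scaling and count test and without any 1 library. That of Atp5g2 was lost without any 1 library but Aged replicate 3. Capitals mark the NRF1 letters and, in Atp5k, also the ETS letters on the other strand, which do not overlap them. The windows are chr4:24897833-24898132 (+ strand), chr5:108434350-108434649 (- strand) and chr15:102670998-102671297 (- strand).
Ndufaf4: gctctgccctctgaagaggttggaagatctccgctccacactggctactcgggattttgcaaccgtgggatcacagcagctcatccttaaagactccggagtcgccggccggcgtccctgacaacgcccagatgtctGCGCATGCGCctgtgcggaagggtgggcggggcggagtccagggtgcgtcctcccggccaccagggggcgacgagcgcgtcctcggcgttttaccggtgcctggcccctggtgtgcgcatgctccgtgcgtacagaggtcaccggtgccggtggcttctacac
Atp5k: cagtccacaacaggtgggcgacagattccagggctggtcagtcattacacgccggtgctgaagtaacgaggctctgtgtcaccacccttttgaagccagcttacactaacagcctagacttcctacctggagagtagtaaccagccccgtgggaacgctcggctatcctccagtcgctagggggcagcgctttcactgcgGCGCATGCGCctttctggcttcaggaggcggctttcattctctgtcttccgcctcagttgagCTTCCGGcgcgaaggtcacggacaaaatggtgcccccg
Atp5g2: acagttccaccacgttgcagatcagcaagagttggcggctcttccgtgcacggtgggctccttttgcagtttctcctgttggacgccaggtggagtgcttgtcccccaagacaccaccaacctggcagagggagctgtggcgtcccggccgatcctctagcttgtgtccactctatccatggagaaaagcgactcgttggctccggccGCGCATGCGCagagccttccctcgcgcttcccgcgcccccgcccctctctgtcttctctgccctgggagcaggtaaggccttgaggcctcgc
The first base of the NRF1 letters lay 113 bases before the start in Ndufaf4, 50 before it in Atp5k and 42 before it in Atp5g2.

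Other genes of the pathway came from 6 lists, whose called shares are to be read against 16.2% higher and 12.5% lower over all genes, with a median log2 fold change of 0.03. Of 27 tested genes for mitochondrial DNA replication, transcription and RNA processing, 5 were called higher (18.5%) and 0 lower. Their median log2 fold change was 0.17, and 77.8% were above 0, against 53.2% of all genes. Lrpprc, which stabilises mitochondrial messages, was at 179.8 CPM in Aged and 132.9 CPM in Young libraries (0.43 ± 0.08, limma adjusted p = 0.000297). Supv3l1, a helicase of the mitochondrial RNA degradosome, was at 26.9 CPM in Aged and 15.6 CPM in Young libraries (0.78), and Tfb2m, a mitochondrial transcription factor, at 20.2 CPM in Aged and 12.1 CPM in Young libraries (0.72).

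Of 37 tested assembly factors of complexes II to V, 4 were called higher and 4 lower (10.8% each), with a median of 0.05. Coa7 was at 17.2 CPM in Aged and 8.07 CPM in Young libraries (1.05), while Cmc1 was at 48.8 CPM in Aged and 72.5 CPM in Young libraries (-0.55) and Higd1a at 273.3 CPM in Aged and 325.2 CPM in Young libraries (-0.25). Of 9 tested complex I assembly factors without Nduf names, Timmdc1 was called higher (11.1% of the list), at 27.2 CPM in Aged and 16.6 CPM in Young libraries, and 0 were called lower, with a median of 0.21. Of 12 tested genes for coenzyme Q, the ubiquinone of the chain, 2 were called higher (16.7%) and 0 lower, with a median of 0.09. They were Coq7, at 29.8 CPM in Aged and 14.1 CPM in Young libraries (1.00), and Coq5, at 36.5 CPM in Aged and 24.3 CPM in Young libraries (0.58).

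Of 24 tested carriers and genes of cristae and inner membrane, 5 were called higher (20.8%) and 2 lower (8.33%), with a median of 0.18. Phb and Phb2, the prohibitins of the inner membrane, rose by 0.43 and 0.28, and the carrier Slc25a36 fell by 1.02. Of 16 tested regulators of mitochondrial biogenesis, 3 were called higher (18.75%) and 2 lower (12.5%), with a median of 0.19. Foxo1, a transcription factor of quiescent T cells, fell to 48.8 CPM in Aged libraries, against 100.8 CPM in Young libraries (-1.04, limma adjusted p = 3.21e-06), and Foxo3 to 24.5 CPM in Aged, against 40.6 CPM in Young libraries (-0.72). Pprc1, a coactivator of the PGC-1 family, was at 21.3 CPM in Aged and 10.4 CPM in Young libraries (0.95).

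Annotation limits touch some called members. Exons of Atp5a1, Cox4i1, Cox5a, Cox6c, Ndufa13, Ndufab1 and Ndufs1 run across exons of an oppositely oriented gene, as do those of 28 of the 90 nuclear members, and unstranded counting would mix the reads of both. A gene on the same strand overlaps 5 of the 90, among them Atp5g2 of the called members. The nuclear members lie on 19 chromosomes.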

How the data were processed

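Libraries were made with the QuantSeq kit, which primes on poly(A) tails and reads the 3′ ends of transcripts, per the labels' protocols. The authors deposited 1 file per library with CPM (reads per 1000000 counted) for 25655 Ensembl identifiers, on the build GRCm38, also called mm10, as the submitters' processing notes state. For the aligner, counting program, annotation and strand setting, nothing is stated (not given in the sources used here). Divided by what 1 read is worth in its library, 100% of values came out whole (tolerance 0.001), so reads were recovered. 1 row with a blank identifier was left out. In the file of Aged replicate 2 the header names replicate 3, and the sample record was followed. Symbols came from GENCODE M21 (25599 identifiers matched, 55 did not).

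The test was limma 3.58.1 (R 4.3.3) with an intensity trend on log2(CPM + 1), two-sided, over 10511 genes averaging 1 CPM or more, with calls where the p adjusted by Benjamini-Hochberg was under 0.05. Alternatives were TMM, RLE and upper-quartile scaling, other filters (none, 5 CPM) and pseudocounts (0.1, 5), edgeR 4.0.16, DESeq2 1.42.0 and limma-voom on recovered reads, the replicate block, CPM without mitochondrially encoded genes, and leaving out each library. The range of 30 to 700 CPM was chosen after seeing the data. The fits were tested on simulated data. The members, the gene lists and the tests were chosen with earlier results of these data known. Statistics were given for the 3 members with the smallest p per complex, all mitochondrially encoded members, Cyc1, Cycs, the Sdh genes, the most abundant member per complex, paralogue families and up to 3 genes per list with the smallest p. The other called members, the nuclear core subunits of complex I and the assembly factors were added after their values were seen. Values of some single genes are not reported here. Near-identical 3′ ends were sought with blastn 2.17.0 over the last 150 bases of each transcript, at 95% identity over 80% of them.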

Additional observations from a re-analysis of the deposited data

How the results depend on the processing

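Of the 35 called members, 24 were called in each of the 18 alternatives that gave them a value and 0 changed sign. Of the 68 not called, 24 changed sign and 14 were called in at least 1 alternative. Of 17 nuclear members called higher, TMM, RLE and limma-voom called 10 each, upper-quartile scaling 9, edgeR 11 and DESeq2 8. Upper-quartile scaling called 18 lower, against 10. The nuclear median log2 fold change (0.0555) was 0.0023 with TMM and -0.0265 with upper-quartile scaling, and the log2 ratio of summed CPM, nuclear members (0.0109), was -0.0435 with TMM. Without 1 library, 10 to 14 nuclear members were called higher. Over all genes, 56.4% of calls were higher, against 47.9% with TMM and 43.6% with upper-quartile scaling.

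Signs turned for 8 members under all 6 scalings and count tests (Sdhd, Cox6a1, Cox6b1, Ndufa11, Ndufb5, Uqcrc2, Cox5b and Atp5j2) and for 5 more with upper-quartile scaling. The first 3 are given in the order TMM, RLE, upper quartile, edgeR, DESeq2 and limma-voom. Sdhd was at -0.0166, -0.012, -0.045, -0.0038, -0.002 and -0.0041. Cox6a1 was at -0.037, -0.0324, -0.0661, -0.0383, -0.0333 and -0.037. Cox6b1 was at -0.0441, -0.0395, -0.0732, -0.0483, -0.0431 and -0.0442. Without 1 library, values ran from -0.0355 to 0.102 for Sdhd, -0.0208 to 0.0468 for Cox6a1, -0.0506 to 0.062 for Cox6b1, -0.0885 to 0.0134 for mt-Nd1, -0.1655 to 0.0849 for Ndufv2, -0.179 to 0.0571 for Ndufs3, -0.1969 to 0.1254 for Ndufs8 and -0.0771 to 0.095 for Ndufaf8. The cause was not tested. Filters and pseudocounts moved the nuclear calls to 16 to 20 higher and left 10 lower.

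With the replicate block, 16 nuclear members were called higher, 11 nuclear and 8 mitochondrially encoded members lower. Deviations of same-numbered libraries correlated at 0.00025 to 0.0209, so the numbers were not taken to pair them. The depth, at 1 read for 0.359 to 0.512 CPM, limits Cox6a2, Atp5s and the other members of a few CPM.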
